A study of Rattus norvegicus with 16 samples.

Results

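The peptidyl arginine deiminase genes were followed in rat thyroid cells in which the transcription factor *Pax8* had been silenced. The members were the 4 genes of the family that the array measured, *Padi1*, *Padi2*, *Padi3* and *Padi4*, found as the probes whose RefSeq accession carries one of these symbols. Each gene had 1 probe with 1 spot, so that 4 of 41012 probes on the array are described. The probes were A_42_P756876 for *Padi1* (NM_019332), A_42_P499767 for *Padi2* (NM_017226), A_43_P11871 for *Padi3* (NM_017230) and A_42_P702258 for *Padi4* (NM_017227). No probe was matched to *Padi6*, the fifth gene of the family.

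PCCl3 cells, a rat line that keeps the functions of the thyroid follicle, were all grown with thyrotropin and the other hormones of its medium. Their RNA was compared between 3 conditions on competitive arrays, in which RNA labelled with Cy3 and RNA labelled with Cy5 bind to the same probes: cells given siRNA directed at *Pax8* (si*Pax8*), cells given a scrambled siRNA (siScramble), and cells that the labels call wild type (wt). Both siRNAs were given at 10 ng/ml with Lipofectamine and the RNA was taken after 48 hours. The labels mention Lipofectamine for the siRNA conditions alone, whereas the methods state that the third RNA came from cells treated with it. si*Pax8* cells were set against wt cells on 8 arrays and against siScramble cells on another 8, with 4 replicates per comparison and each replicate hybridized in both dye orientations. Values are log2 ratios of si*Pax8* over control, averaged over the 2 arrays of a replicate.

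Peptidyl arginine deiminases are calcium-dependent enzymes that turn arginine residues of proteins into citrulline, which removes a positive charge and can change how a protein folds or binds others. PADI1 and PADI3 are best known from the epidermis and the hair follicle, where they modify filaggrin, keratins and trichohyalin. PADI2 is the widely expressed member, known from brain, muscle and secretory tissues, and PADI4, which enters the nucleus and modifies histones, is best known from granulocytes. PADI6 is an oocyte protein.

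The genes lie side by side on chromosome 5 of the rat, in the order *Padi6*, *Padi4*, *Padi3*, *Padi1* and *Padi2* in the assembly GRCr8, between *Rcc2* and *Sdhb*. The 250 bases before the annotated start are shown for *Padi1* and *Padi3*, the neighbours that rose together, and for *Padi2*, the next gene, which did not rise with them. They are RefSeq sequences of GRCr8, written 5′ to 3′ on the strand of the gene, at chr5:158435078-158435327 (minus strand) for *Padi1*, chr5:158400194-158400443 (minus strand) for *Padi3* and chr5:158491837-158492086 (plus strand) for *Padi2*. The file headers name the older assembly rn4, so these positions were not set against any position in the files. Capitals mark the matches found among 5 motifs, searched on both strands.
*Padi1*: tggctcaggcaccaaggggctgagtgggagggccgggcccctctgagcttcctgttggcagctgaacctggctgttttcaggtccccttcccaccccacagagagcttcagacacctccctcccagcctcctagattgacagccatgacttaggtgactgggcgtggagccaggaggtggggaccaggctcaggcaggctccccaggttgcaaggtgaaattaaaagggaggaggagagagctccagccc
*Padi3*: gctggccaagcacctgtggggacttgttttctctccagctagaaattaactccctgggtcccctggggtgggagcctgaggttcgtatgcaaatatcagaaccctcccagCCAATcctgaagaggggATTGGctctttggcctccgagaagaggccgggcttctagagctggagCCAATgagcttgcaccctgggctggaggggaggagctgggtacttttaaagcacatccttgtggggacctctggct
*Padi2*: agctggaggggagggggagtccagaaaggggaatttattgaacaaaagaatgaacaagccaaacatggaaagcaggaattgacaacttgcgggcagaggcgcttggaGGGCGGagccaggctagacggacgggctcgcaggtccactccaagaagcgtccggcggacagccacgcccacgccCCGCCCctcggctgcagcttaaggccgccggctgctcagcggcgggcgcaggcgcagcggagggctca
The *Padi3* window held 3 matches to the CCAAT box (CCAAT), which began 140, 123 and 76 bases before the start. The *Padi2* window held 2 matches to the GC box (GGGCGG), at 143 and 68 bases before the start. A CCAAT box was found in 34% and a GC box in 30.5% of 33469 rat promoter windows of the same length. None of the 5 motifs matched in the *Padi1* window. The letters of a TATA box (TATAAA, in 12.9% of windows), an AP-1 site (TGANTCA, in 6.34%) and a core of the Pax2, Pax5 and Pax8 paired domain site (GCGTGAC, in 1.74%) were in none of the 3 windows. The search took fixed letters within 250 bases, so sites with a mismatch or farther away were not looked for. For most of a few upregulated genes, *Padi1* among those examined, the paper reports potential Pax8 sites in promoter peaks. It does not name which of them had a site. GC content was 62% for *Padi1*, 57.2% for *Padi3* and 64.4% for *Padi2*.

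The *Pax8* probe gave log2 ratios of -0.84, -0.57, -0.59 and -0.26 in replicates 1 to 4 against wt cells, a mean of -0.56 ± 0.24 (SD, n = 4; limma, adjusted p = 0.000472), a call lost without replicate 3 (adjusted p = 0.00562). Against siScramble cells they were -0.58, -0.29, -0.12 and -0.01, a mean of -0.25 ± 0.25 (SD, n = 4; limma, adjusted p = 0.143), which did not pass the threshold. The probe measures mRNA, whereas the paper reports by immunoblot less Pax8 protein than in untransfected and in siScramble cells. Of 10 thyroid follicular markers 8 were measured, all well above background. Against wt cells 7 fell (4 to 8 under the alternatives), among them thyroglobulin, the hormone precursor (*Tg*, -0.96 ± 0.17), and *Tg* alone fell against siScramble cells (-0.65 ± 0.12, a call lost without replicate 2, at -0.7 to -0.61 without single replicates). Over all probes, 15.3% passed an adjusted p under 0.005 against wt cells (2886 higher and 3374 lower) and 2.11% against siScramble cells (499 higher and 368 lower). The second split was 418 to 179 without quantile normalization and 24 to 5 with Agilent's processed signals. In the si*Pax8* channel the share of spots well above background ranged from 52% to 60.8%. As in any bulk sample, more RNA per cell and more cells with that RNA cannot be told apart.

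*Padi1* and *Padi3* rose in si*Pax8* cells in both comparisons, *Padi1* 1.5-fold against wt and 1.42-fold against siScramble cells and *Padi3* 1.38-fold and 1.45-fold, whereas *Padi2* fell against wt cells and gave an uncalled ratio of the opposite sign against siScramble cells. The folds of *Padi1* and *Padi3* hold for the background correction reported here and were larger under the others tried. *Padi4* lay close to background and passed neither test. Thus 2 of the 4 genes were called higher and 1 lower against wt cells, where 7.04% of all probes were called higher and 8.23% lower. Against siScramble cells 2 were called higher and 0 lower by limma, where 1.22% of all probes were called higher and 0.897% lower. At an unadjusted p under 0.05 (limma) 4 were higher and 0 lower, but the share of all probes at that cut was not counted. *Padi4* and *Padi2* stood only at ranks 5090 and 5721 of 41012 probes by p in that comparison. The study names *Padi1* and *Padi3* among its results from these arrays, so their calls are no independent evidence. The paper also reports higher *Padi1* mRNA by quantitative PCR in separately silenced cells. From its Pax8 binding data it proposes that a shared binding site could regulate both genes, which was not tested here.

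*Padi1* gave log2 ratios of 0.54, 0.69, 0.54 and 0.57 in replicates 1 to 4 against wt cells. All 8 arrays lay above 0, from 0.44 to 0.73. The mean was 0.59 ± 0.07 (SD, n = 4), a 1.5-fold higher level, with a 95% confidence interval of 0.51 to 0.66 (limma, adjusted p = 3.98e-06). Against siScramble cells the replicates gave 0.46, 0.48, 0.55 and 0.52 and the 8 arrays lay between 0.4 and 0.66. The mean of 0.5 ± 0.04 (SD, n = 4) was a 1.42-fold higher level, with an interval of 0.44 to 0.57 (limma, adjusted p = 0.000188). By the size of its p, *Padi1* stood at rank 438 of all probes against wt cells and at rank 70 against siScramble cells.

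*Padi3* gave 0.56, 0.37, 0.51 and 0.44 in replicates 1 to 4 against wt cells, again with all 8 arrays above 0. The mean log2 ratio was 0.47 ± 0.08 (SD, n = 4), a 1.38-fold higher level with an interval of 0.39 to 0.55 (limma, adjusted p = 2.2e-05). Against siScramble cells it gave 0.6, 0.51, 0.5 and 0.52. That mean was 0.53 ± 0.05 (SD, n = 4), a 1.45-fold higher level with an interval of 0.46 to 0.6 (limma, adjusted p = 0.000188). Its rank by p was 971 against wt cells and 63 against siScramble cells.

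The ratio of *Padi1* to wt cells exceeded that to siScramble cells by 0.09, with an interval of -0.01 to 0.18 (limma, adjusted p = 0.285). For *Padi3* that difference was -0.06, with an interval of -0.17 to 0.04 (limma, adjusted p = 0.524). Neither difference passed the threshold, which 3.44% of all probes passed. Both comparisons have si*Pax8* RNA in their ratios, and whether same-numbered replicates used the same si*Pax8* samples was not settled by the labels, so they are not counted as separate repeats. Within each of the 4 slides, which held both dye orientations of each comparison, *Padi1* was at 0.51 to 0.65 on the wt arrays and at 0.47 to 0.56 on the siScramble arrays. *Padi3* was at 0.42 to 0.5 and at 0.49 to 0.59.

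**Figure D1:**
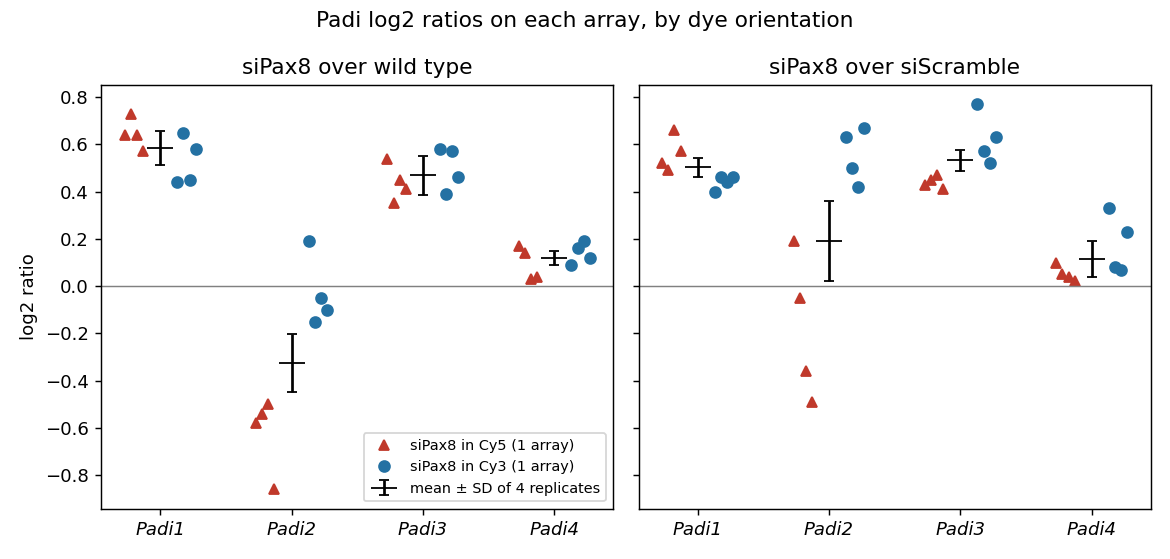
Log2 ratio of si*Pax8* over wt cells (left) and over siScramble cells (right) for each deiminase probe on each array (y axis). Triangles are arrays with si*Pax8* in Cy5, circles arrays with si*Pax8* in Cy3, and black bars the mean ± SD of the 4 replicates after the 2 orientations were averaged. *Padi1* and *Padi3* lie above 0 on every array, while the *Padi2* points separate by dye, with means of -0.62 and -0.03 against wt cells and of -0.18 and 0.56 against siScramble cells.

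The size of these rises depended on how the background of dim spots was treated. Among the background treatments tried, the reported normexp offset of 50 gave the smallest ratios, and the intervals above hold for that setting alone. The raw signal of *Padi1* was 1.41 to 2.29 times its local background in the control channel of the wt arrays and 2.38 to 5.12 times in the si*Pax8* channel. With Agilent's processed signals, from which the background is subtracted in full, the log2 ratio of *Padi1* was 1.71 against wt and 1.5 against siScramble cells, and with a normexp offset of 10 in place of 50 it was 0.89 and 0.73. Without background correction it was 0.9 and 0.77. For *Padi3*, whose control signal was 2.64 to 4.63 times background on the wt arrays, Agilent's signals gave 0.82 and 1.0. Both genes passed the threshold in both comparisons under all 17 alternatives, leaving out each replicate among them. The alternatives are not all separate checks: loess alone and loess with Aquantile normalization gave the same ratios.

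*Padi2* was far above background, with raw signals 24.4 to 113 times the local background over all arrays and conditions. Against wt cells its replicates 1 to 4 gave log2 ratios of -0.19, -0.35, -0.28 and -0.48. The mean was -0.32 ± 0.12 (SD, n = 4), a 1.25-fold lower level with an interval of -0.43 to -0.22 (limma, adjusted p = 0.000631). Against siScramble cells the replicates gave 0.41, 0.23, 0.03 and 0.09, with a mean of 0.19 ± 0.17 (SD, n = 4), an interval of 0.05 to 0.33 and no call (limma, adjusted p = 0.119). The replicates of the 2 comparisons did not overlap. The difference between them was -0.51, with an interval of -0.7 to -0.33 (limma, adjusted p = 0.00308).

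The *Padi2* ratio moved with the dye. With si*Pax8* in Cy5 the 4 arrays against wt cells gave -0.58, -0.54, -0.5 and -0.86, and with si*Pax8* in Cy3 they gave 0.19, -0.15, -0.05 and -0.1. Against siScramble cells the first orientation gave 0.19, -0.05, -0.36 and -0.49 and the second 0.63, 0.5, 0.42 and 0.67. The orientations did not overlap in either comparison. A term for the dye, the log2 shift of Cy5 against Cy3 that both samples share, was -0.3 on the wt arrays (limma, adjusted p = 0.00117) and -0.37 on the siScramble arrays (limma, adjusted p = 0.00449). The fit with this term took the 8 arrays of a comparison as separate values, not as 4 replicates. Over all probes the median size of that term was 0.0374 and 0.036, and 3.77% and 3.37% of probes passed the threshold for it. The other members had terms between -0.09 and 0.06, none of them called.

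Each mean holds both orientations equally, so that a dye shift common to both cancels in it. In the fit with that dye term the *Padi2* ratio was -0.32 against wt cells and was called (limma, adjusted p = 7.79e-05), and it was 0.19 against siScramble cells (adjusted p = 0.0834). Because that fit counted the swapped arrays of a replicate separately, its p-values overstate the number of replicates. A single orientation still contains the dye shift. Against wt cells *Padi2* passed with si*Pax8* in Cy5 (-0.62) and gave -0.03 with si*Pax8* in Cy3 (limma, adjusted p = 0.821). The call against wt cells was lost without replicate 2 (-0.32, limma, adjusted p = 0.00614), with same-numbered arrays as a block (adjusted p = 0.0151), with slide as a term (adjusted p = 0.112) and with Agilent's signals (-0.35, adjusted p = 0.0218). The block and slide fits took single arrays without a dye term, so the dye shift of *Padi2* stayed in their error. Within slides the ratio was -0.3 to -0.34 against wt cells and 0.07 to 0.43 against siScramble cells. The call of the difference was lost without replicate 2 (-0.49, limma, adjusted p = 0.0336), 3 (-0.58, adjusted p = 0.0126) or 4 (-0.5, adjusted p = 0.0143).

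*Padi4* gave log2 ratios of 0.13, 0.15, 0.11 and 0.08 against wt cells, with a mean of 0.12 ± 0.03 (SD, n = 4; limma, adjusted p = 0.0147). Against siScramble cells it gave 0.22, 0.06, 0.06 and 0.12, with a mean of 0.12 ± 0.08 (SD, n = 4; limma, adjusted p = 0.0943). All 16 ratios were above 0 and neither mean passed the threshold. The probe was well above background on 5 of 8 arrays in the si*Pax8* channel of each comparison, on 0 of 8 in the wt channel and on 1 of 8 in the siScramble channel. The wt level is therefore an upper bound. After loess and Aquantile normalization the measured *Padi4* means were 6.68 in si*Pax8* and 6.54 in wt cells on the log2 scale. Their 1.1-fold ratio is an estimate from dim spots and not a lower limit. With Agilent's signals the ratio was 1.08 against wt cells and passed (limma, adjusted p = 0.00239), and without background correction it was 0.25 (limma, adjusted p = 0.000356). The other 3 probes were well above background on 8 of 8 arrays in every condition.

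The normalized log2 intensity of each probe gave the order of the conditions. *Padi1* was at 6.82 ± 0.04 in wt and 6.92 ± 0.04 in siScramble cells (SD, n = 4), and at 7.41 ± 0.08 and 7.42 ± 0.07 in si*Pax8* cells on the wt and siScramble arrays. The controls overlapped each other and lay below every si*Pax8* replicate. *Padi3* followed the same order, at 7.45 ± 0.05 in wt, 7.39 ± 0.06 in siScramble and 7.92 ± 0.04 in si*Pax8* cells on either set of arrays. *Padi2* had its highest level in wt cells, at 11.39 ± 0.04 with replicates from 11.34 to 11.44, and its lowest in siScramble cells, at 10.94 ± 0.11 with replicates from 10.81 to 11.07. The si*Pax8* levels lay between them, at 11.07 ± 0.08 and 11.12 ± 0.07, and overlapped only the siScramble levels. wt and siScramble RNA were never on the same array, so no test was made between these levels, and levels of different probes cannot be set against each other. *Padi4* ranged from 6.5 to 6.59 in wt, from 6.52 to 6.82 in siScramble and from 6.64 to 6.87 in si*Pax8* cells.

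**Figure D2:**
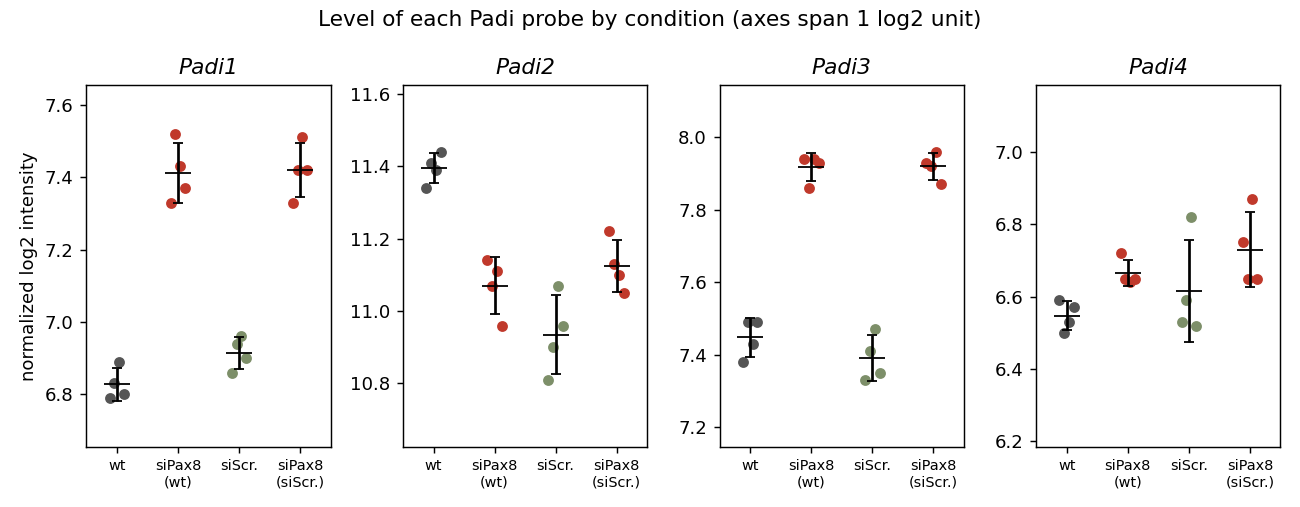
Normalized log2 intensity (y axis) of each deiminase probe in wt, siScramble and si*Pax8* cells, with si*Pax8* shown separately for the arrays shared with wt and with siScramble cells. Points are the 4 replicates, bars the mean ± SD, and every panel spans 1 log2 unit. *Padi1* and *Padi3* are higher in si*Pax8* cells than in both controls, whereas *Padi2* is highest in wt cells (11.39) and lowest in siScramble cells (10.94).

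By mean absolute difference over the 8 replicate ratios of both comparisons, *Padi1* and *Padi3* were 0.0916 apart. *Padi1* was 0.612 from *Padi2* and 0.428 from *Padi4*, and *Padi3* was 0.568 and 0.384 from them. The named genes nearest to *Padi1* were *Hk3* (a hexokinase, 0.0425), *Plpp3* (a lipid phosphatase, 0.0569), *Entpd2* (an ectonucleotidase, 0.0581), *Grk5* (a receptor kinase, 0.0585) and *Th* (tyrosine hydroxylase, 0.0597). Among those nearest to *Padi3* were *Hk3* (0.0774), *Dusp6* (a MAP kinase phosphatase, 0.0822), *Th* (0.0824) and *Traf3ip2* (a signalling adaptor, 0.0827). *Hk3* and *Th* were thus on both lists, and the nearest probes of the 7 genes named here, 1 probe a gene, had log2 ratios of 0.52 to 0.66 against wt and 0.42 to 0.52 against siScramble cells. These distances describe the size of the ratios in the same replicates and rest on the 10768 probes that had a symbol.

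No probe was named for any of the 8 genes listed beforehand as neighbours of the cluster. The nearest genes with a named probe, 5 on each side, were therefore taken after this was seen, and have 4 to 18 genes between them and the cluster. Among those reported here, *Capzb*, an actin capping protein subunit, rose against wt cells (0.25 ± 0.11, limma, adjusted p = 0.00192, lost without replicate 2, 3 or 4) and gave 0.13 against siScramble cells (adjusted p = 0.14). Another 8 passed neither test, with ratios from -0.09 to 0.2 against wt cells.

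Of 24 listed proteins known to be citrullinated, 20 were measured and 14 had a probe well above background on at least 8 of 16 arrays in either channel. Against wt cells 3 of their genes rose and 2 fell, beside 7.04% of all probes called higher and 8.23% lower, with a median log2 ratio of -0.01 beside 0 for all probes. Against siScramble cells 2 rose and 1 fell, beside 1.22% and 0.897% of all probes, with a median of 0. With same-numbered arrays as a block the counts were 3 higher and 1 lower, and 1 higher and 2 lower. The keratin gene *Krt14* rose in both, by 1.01 ± 0.1 and 0.51 ± 0.03 (SD, n = 4; limma, adjusted p = 4.36e-07 and 0.000154). *Vim*, which encodes vimentin, rose by 0.56 ± 0.17 and 0.25 ± 0.05 (limma, adjusted p = 0.000106 and 0.00369), and its call against siScramble cells was lost without any single replicate (0.22 to 0.26, adjusted p up to 0.0265). *Hspa5*, a chaperone of the endoplasmic reticulum, fell in both, at -0.19 ± 0.04 and -0.39 ± 0.03 (limma, adjusted p = 0.0012 and 0.000401). The first of these was lost without replicate 2, 3 or 4 (-0.21 to -0.18, adjusted p up to 0.00959) and the second without replicate 2 (adjusted p = 0.0062).

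The chemokine genes of the list moved in opposite directions against wt cells. *Cxcl10* rose by 1.8 ± 0.21 (SD, n = 4; limma, adjusted p = 3.57e-07) and gave 0.09 ± 0.19 against siScramble cells (adjusted p = 0.591), a difference of 1.71 that passed (adjusted p = 9.14e-06). *Cxcl12* fell against wt cells on both of its probes, with a mean of -0.75 ± 0.13. Against siScramble cells its mean was -0.42 ± 0.11, with 1 of the 2 probes past the threshold. *Eno1*, which encodes a glycolytic enzyme, had 1 of its 2 probes past the threshold against wt cells (0.34, limma, adjusted p = 0.00212; the other 0.18, adjusted p = 0.0116) and neither against siScramble cells. The genes of the epidermal keratin *Krt1* and of *Npm1* were not called in either comparison. Of 14 listed symbols of the cornified envelope, where PADI1 and PADI3 act in skin, 4 were measured and 0 were called by limma. At an unadjusted p under 0.05 (limma) 0 passed against wt cells and 2 against siScramble cells, 1 higher and 1 lower. The share of all probes at that cut was not counted. *Tgm1* and *Ivl* were not above background on more than 1 array.

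A further list held genes of arginine and citrulline metabolism, arginine transporters, and enzymes that act on arginine in proteins. Of its 22 genes 19 were measured, with a median log2 ratio of -0.02 against wt and -0.01 against siScramble cells. Against wt cells 1 rose and 4 fell, beside 7.04% of all probes called higher and 8.23% lower. *Ddah2* rose by 0.85 ± 0.22 (SD, n = 4; limma, adjusted p = 3.05e-05), and its relative *Ddah1* fell, at -0.34 ± 0.04 on 2 probes. *Odc1*, the first enzyme of polyamine synthesis, was at -0.3 ± 0.12 and *Arg2*, a mitochondrial arginase, at -0.24 ± 0.05, both called lower, the first not without replicate 2, 3 or 4 (-0.33 to -0.24, adjusted p up to 0.012). *Nos3* (-0.15 ± 0.03) was called lower too, but was well above background on no array, and its call was lost without any single replicate (-0.16 to -0.14). Against siScramble cells *Ass1*, which joins citrulline and aspartate, alone was called, beside 0.897% of all probes lower (-0.42 ± 0.14, limma, adjusted p = 0.00387, lost without replicate 2, 3 or 4), with -0.21 ± 0.22 against wt cells (adjusted p = 0.0509).

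**Figure D3:**
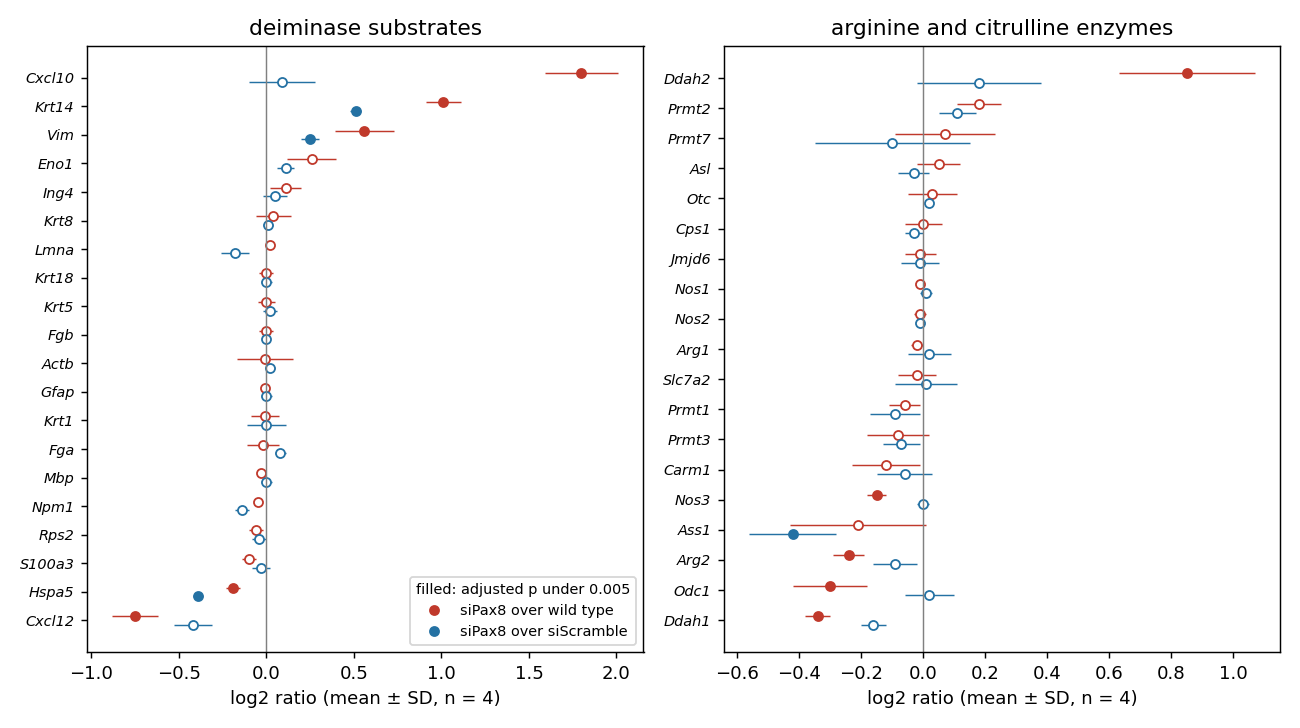
Log2 ratio of si*Pax8* over wt (red) and siScramble cells (blue) for genes of known deiminase substrates (left) and of the arginine and citrulline list (right), mean ± SD of 4 replicates. Filled circles passed an adjusted p under 0.005 on every probe of the gene. Most circles are open and near 0, and *Krt14*, *Vim* and *Hspa5* are filled in both comparisons.

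Markers of cells that express deiminases elsewhere were few on the named probes. Of 7 leukocyte markers 2 were measured: *Cd68*, a macrophage marker also made by other cells, rose against wt cells (0.3 ± 0.12, SD, n = 4; limma, adjusted p = 0.000797, lost without replicate 3 or 4) and gave 0 against siScramble cells, and *Itgam* was well above background on no array. Of 3 keratinocyte markers 2 were measured, *Krt14* as above and *Krt5*, which was well above background on 2 or 3 of 8 arrays per condition and was not called. Of 5 fibroblast and endothelial markers *Col1a2* and *Pecam1* were measured and not called, and *Pecam1* was well above background on no array. The part of any other cell type in the rise of *Padi1* and *Padi3* was not tested.

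**Figure D4:**
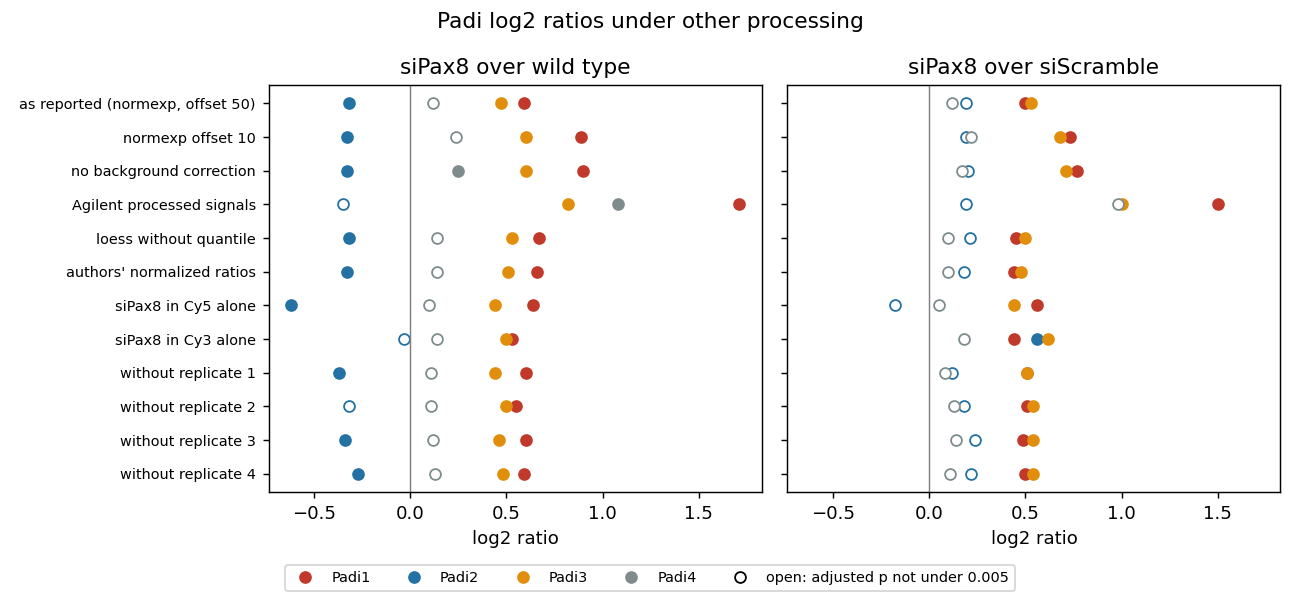
Log2 ratio (x axis) of the 4 deiminase probes over wt (left) and siScramble cells (right) under the processing reported here (top row) and 11 alternatives (other rows). Filled circles passed an adjusted p under 0.005. *Padi1* and *Padi3* are filled throughout and reach 1.71 and 0.82 against wt cells with Agilent's processed signals, while *Padi2* and *Padi4* change between filled and open.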

How the data were processed

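RNA of PCCl3 cells was measured on 16 Agilent rat arrays, and groups, dyes and replicate numbers came from the labels. The authors deposited scanner intensities (mean spot and median background of each dye), intensities processed by Agilent's software, and log10 ratios from these. Per the file headers, spots were read at 5 µm with version 10.1.1.1 of Feature Extraction, which differs from the methods. The authors also deposited a table of normalized log2 ratios, whose columns had medians from -0.00011 to 0.0068 and correlated with the ratios computed here at -0.999 to -0.993, so that it holds control over si*Pax8*. Its slopes against them were -1.05 to -0.95, and its log base was taken as 2. The labels' processing notes name limma. Per the methods, 2 µg of total RNA per sample were amplified in 2 rounds.

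Intensities were analysed with limma 3.58.1 and statmod 1.5.0 under R 4.3.3. Background was corrected by normexp (offset 50) and each array by loess, with weight 0 for control and outlier spots. The 1639 control spots were then dropped and the channels of all arrays quantile normalized. Outlier spots, 112 to 215 of 45018 per array, were left out. Dye-swapped arrays of a replicate were averaged and 4 values per comparison were fitted with lmFit and eBayes. Benjamini-Hochberg adjustment ran over 41012 probes, with the methods' threshold of 0.005. The difference between comparisons was fitted to the 8 values as separate groups. The median SD between replicates was 0.0632 against wt and 0.0603 against siScramble cells. The number of arrays and the dimness of spots limit the precision.

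Probes were named by accession through RefSeq symbols (10768 probes). A gene with several probes counts as called when each is. The genes named are the deiminases, every list fixed with them (substrates, cornified envelope, arginine and citrulline genes, neighbours, cell type markers), and the 5 named genes nearest to each member called in both comparisons. Of the neighbours and the nearest genes, 1 each is not reported here. Members and lists were chosen with earlier results of these data known. Same-numbered arrays were checked by correlating deviations from the group mean: between dye orientations r was 0.32, 0.12, 0.4 and 0.47 against wt and 0.47, 0.56, 0.58 and 0.33 against siScramble cells. For replicate 2 against wt cells a different-numbered array correlated better (0.2), so the check did not bear out that pair. The dye orientations were paired by their numbers throughout. Between comparisons r was 0.39, 0.17, 0.04 and 0.57, so that pairing was only an alternative. The fit was tested on simulated data. Alternatives were other background corrections, Agilent's signals, other normalizations, each dye orientation, blocks and terms for replicate, slide and dye, a joint fit, a filter on dim probes, the deposited ratios, and leaving out each replicate.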

Additional observations from a re-analysis of the deposited data

Results flagged for a closer look

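*Padi2* was the member whose ratios differed between the comparisons by a test of that difference: the log2 ratio to wt cells was lower than that to siScramble cells by 0.51 (-0.51, interval -0.7 to -0.33; limma, adjusted p = 0.00308), with means of -0.32 and 0.19. All 4 replicates lay below 0 against wt cells and all 4 above 0 against siScramble cells. On single arrays, 1 of 8 was above 0 against wt and 5 of 8 against siScramble cells, split by dye orientation as described above.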

How the results depend on the processing

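Under all 17 alternatives, of which loess alone and Aquantile gave the same ratios, *Padi1* and *Padi3* kept their direction and their calls. Their adjusted p (limma) was at most 0.00032 and 0.00158 against wt and 0.00387 and 0.00479 against siScramble cells. Against wt cells *Padi2* lost its call with Agilent's signals (-0.35) and with si*Pax8* in Cy3 alone (-0.03). The call was also lost with the replicate block (-0.32) and slide as a term (-0.32), fits on single arrays without a dye term. Without single replicates the *Padi2* ratio was -0.37 to -0.27. Against siScramble cells it turned to -0.18 with si*Pax8* in Cy5 alone and was called at 0.56 with Cy3 alone. Its difference lost its call with Agilent's signals (-0.54) and Cy5 alone (-0.44), and was -0.58 to -0.48 without single replicates. *Padi4* passed against wt cells without background correction (0.25) and with Agilent's signals (1.08). It also passed with the replicate block (0.12, limma, adjusted p = 0.004) and with dye as a term (0.12, limma, adjusted p = 0.00447), a fit that took the swapped arrays as separate values. Its uncalled difference turned to -0.04 with Cy3 alone and was -0.03 to 0.03 without single replicates, and that of *Padi3* turned to 0.03 with loess alone, with Aquantile and with the deposited ratios. The replicate block changed no other call of a member, and gave *Padi2* a difference of -0.51 (adjusted p = 0.000215) where it paired the comparisons.

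The causes were not tested. Calls over all probes, 2886 higher and 3374 lower against wt and 499 and 368 against siScramble cells, changed by over 1.5 times in places: to 958 and 799, and 24 and 5 with Agilent's signals; to 1699 and 1793, and 1715 and 1870 with Cy3 alone; to 140 and 75 with Cy5 alone, 893 and 811 with the block, 1280 and 1319 with dye as a term and 885 and 867 in the joint fit against siScramble cells; to 234 lower with an offset of 10 and 179 lower with loess alone or Aquantile there; to 1705 and 1713, and 254 and 141 with slide as a term; and without single replicates to 1651 to 3172 and 1724 to 3810 (lowest without replicate 3) against wt, and 84 to 288 and 35 to 124 (lowest without replicate 2) against siScramble cells. The difference between the comparisons was called at 677 probes higher and 732 lower, and at 178 to 1144 and 190 to 1164 under the alternatives. The substrate list had 2 to 5 genes called higher and 0 to 2 lower against wt, and 0 to 2 and 0 to 3 against siScramble cells, the arginine and citrulline list 1 higher and 1 to 4 lower, and 0 or 1 and 0 to 3. Low signal over background limits the folds of *Padi1* and the level of *Padi4*.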
